A study of Mus musculus with 4 samples.

Results

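The MAP kinase cascade kinases of mouse microglia are described here from RNA sequencing. They were chosen by gene symbol as every numbered Mapk, Map2k, Map3k or Map4k gene. The symbol pattern uses no measured values, but the choice was made with earlier results of these data known. The pattern found 43 of the 56832 gene rows, made up of 13 MAPK, 7 MAP2K, 18 MAP3K and 5 MAP4K genes. Kinases of the same pathways under other symbols, such as the RAF kinases, fall outside it and are counted with the pathway lists further on. The cells were naive microglia from female C57BL/6 mice given no intervention, which were litter mates of mice that received blood stem cell or bone marrow grafts, per the design text. They were sorted from dissociated brain as CD11b-positive cells with low to intermediate CD45. A single group of 4 libraries, replicates 1 to 4, was analysed, and the age of the mice is not given in the sources used here. The labels do not tie the libraries to different animals, so a p-value measures the spread between these libraries, which may be technical.

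MAP kinase cascades relay signals from the cell surface to the nucleus through kinases that phosphorylate one another in sequence. A MAP3K activates a MAP2K, which activates a MAP kinase by phosphorylating its activation loop, and MAP4K kinases act upstream of MAP3Ks. The main branches end in the classical ERK kinases, in the JNK kinases, in the p38 kinases or in ERK5. In microglia and other macrophages they carry signals from growth factor receptors, Toll-like receptors and cytokine receptors to AP-1 and other transcription factors.

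The activation loop is where a MAP2K acts, and its motif differs between most branches, so the codons of that loop are shown for 6 MAP kinases whose levels are described below. Each stretch is coding sequence from GENCODE M21 transcripts (GRCm38), 39 bases long. Capitals mark the 3 codons of the activation motif, which encode threonine-glutamate-tyrosine in the ERK genes, threonine-proline-tyrosine in the JNK genes and threonine-glycine-tyrosine in the p38 gene. Mapk6, an atypical MAP kinase, has serine-glutamate-glycine there.
Mapk3: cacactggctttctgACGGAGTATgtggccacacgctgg
Mapk7: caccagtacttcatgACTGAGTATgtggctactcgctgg
Mapk8: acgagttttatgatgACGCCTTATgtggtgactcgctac
Mapk9: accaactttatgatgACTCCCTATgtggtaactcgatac
Mapk14: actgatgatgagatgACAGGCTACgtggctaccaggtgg
Mapk6: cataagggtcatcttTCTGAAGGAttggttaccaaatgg
Mapk8 and Mapk9 differ at 7 of these 39 bases, and Mapk3 and Mapk7, which share the motif, at 10 of 39. Mapk3 and Mapk14 differ at 19 bases and Mapk8 and Mapk6 at 28.

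The libraries held 20360121 to 23292655 reads assigned to genes. All 12 microglia markers reached 1 CPM in every library, where CPM is the count scaled to 1000000 assigned reads, and they summed to 59423, 31767, 32930 and 62369 CPM in replicates 1 to 4. The libraries also stood apart in other ways. Immediate early genes, known as the fastest transcriptional response to a stimulus, summed to 4425, 49997, 39883 and 4565 CPM in replicates 1 to 4. Replicate 4 lacked many genes that the other libraries held: of 6869 genes at 10 CPM or more in replicates 1 to 3, 586 (8.53%) were under 1 CPM in replicate 4. The corresponding shares were 1.18% for replicate 1 and 0% for replicates 2 and 3. Genes with a count numbered 14850, 18978, 18431 and 13944 in replicates 1 to 4, fewer in replicates 1 and 4 at similar depth. A count of 0 in a library therefore need not mean that the transcript was absent from the cells.

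Of the 43 kinases, 22 stood at 1 CPM or more in every library, 14 did so in some libraries only and 7 in none. Among all genes with a count in any library, 38.8% reached 1 CPM in every library. The number at 1 CPM or more was 31, 36, 33 and 24 in replicates 1 to 4, and without replicate 4 the number present in every library was 31. The 7 kinases under 1 CPM throughout were Mapk11, Mapk12, Mapk13, Mapk15, Map3k6, Map3k13 and Map3k21. Mapk11 and Map3k21 had 0 counts in every library, which allows up to 0.129 to 0.147 CPM (3 counts) and covers counting error only. In sorted bulk cells, fewer cells that carry a transcript and less of it per cell cannot be told apart.

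**Figure D1:**
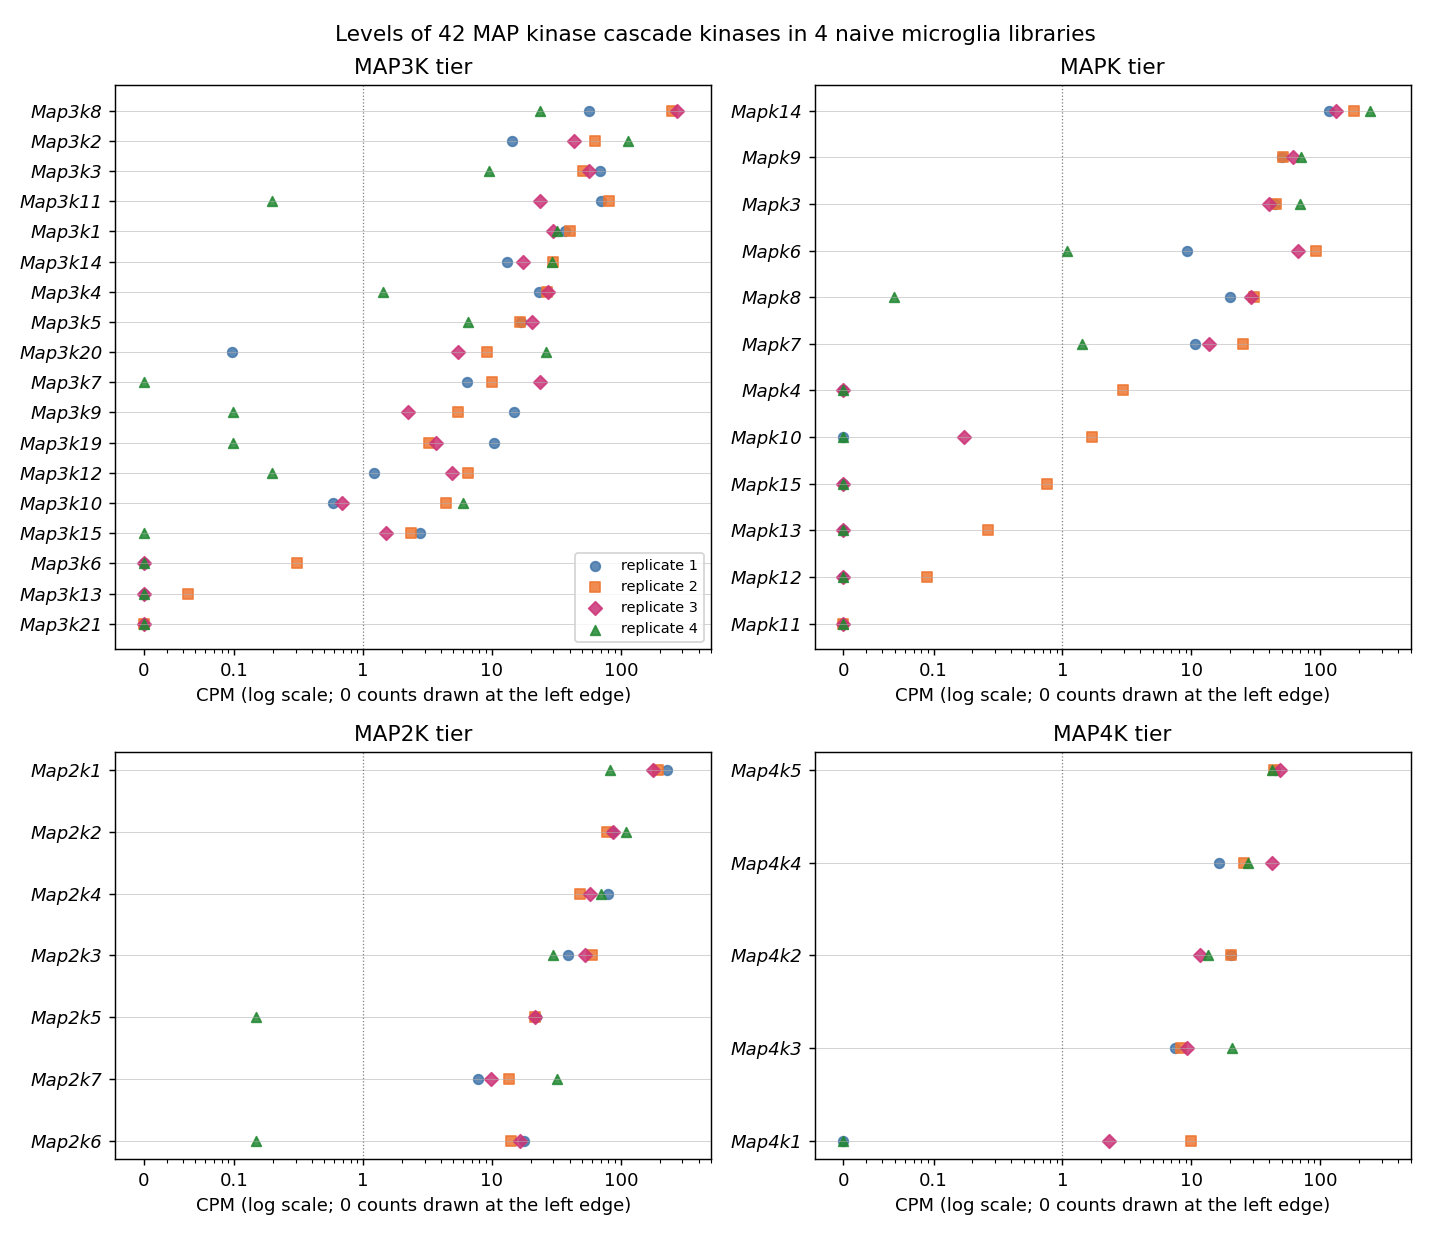
Levels of 42 kinases in CPM (x axis, log scale, 0 counts drawn at the left edge) in each of the 4 naive microglia libraries, by tier and ordered by mean level; the dotted line marks 1 CPM. Map4k5 and Map3k1 sit close together over the libraries, while Mapk6, Map3k11 and Mapk8 spread widely, with replicate 4 (triangles) lowest for each of those 3.

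Mapk14, which encodes p38 alpha, was the leading MAP kinase. Its levels were 117, 182, 133 and 241 CPM in replicates 1 to 4, a mean of 168 ± 56.1 CPM (SD, n = 4). Replicate 4 was the highest and replicate 1 the lowest. The other p38 genes were at or near 0. Mapk13 (p38 delta) had 6 counts and Mapk12 (p38 gamma) 2 counts, all in replicate 2. Against the 3-count floor of Mapk11 (p38 beta), Mapk14 was 529-fold, 904-fold, 682-fold and 1081-fold higher per kb of exon in replicates 1 to 4. These folds are lower bounds for counting error only, and replicate 4 also lacked many genes that the other libraries held.

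Mapk3 encodes ERK1, an end kinase of the RAS and RAF pathway. It stood at 44.4, 45.0, 39.9 and 69.8 CPM in replicates 1 to 4, a mean of 49.8 ± 13.5 CPM (SD, n = 4). Replicates 1 to 3 lay close together and replicate 4 was the highest. Per kb of exon its mean level was 22.1 ± 6.00 CPM, against 38.5 ± 12.8 CPM for Mapk14.

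The JNK genes Mapk8 and Mapk9, which encode stress-activated kinases JNK1 and JNK2, differed in how evenly they were seen. Mapk9 stood at 50.7, 51.7, 61.5 and 71.0 CPM. Mapk8 stood at 19.9, 30.4 and 29.2 CPM in replicates 1 to 3 but had a single count in replicate 4 (0.0491 CPM). Per kb, Mapk9 exceeded Mapk8 by 2.10, 1.52 and 1.83 on the log2 scale in replicates 1 to 3. Mapk10, whose JNK3 product is known mainly from neurons, had 38 counts in replicate 2, 4 in replicate 3 and 0 in replicates 1 and 4. The 10 neuron markers summed to 19.4, 27.8, 44.0 and 21.5 CPM, and their orders of libraries differed. Snap25 among them gave 0.0485, 7.40, 14.0 and 0.0982 CPM, Camk2a 12.3, 6.87, 16.5 and 21.3 CPM and Map2 6.89, 8.02, 4.81 and 0.0982 CPM. Their part in the Mapk10 counts was not tested.

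Mapk7, which encodes ERK5, stood at 10.7, 25.1, 13.7 and 1.42 CPM in replicates 1 to 4. Mapk6, which encodes the short-lived atypical kinase ERK3, had the widest range of the kinases tested, at 9.27, 92.1, 67.6 and 1.08 CPM. Replicates 2 and 3 were far above replicates 1 and 4 for Mapk6, as they were for the immediate early genes, while the microglia marker sum was lower there. The part of these differences in the Mapk6 level was not tested. The other atypical genes, Mapk4 (ERK4) and Mapk15 (ERK7), were seen in replicate 2 alone, at 2.97 and 0.753 CPM.

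Within the MAPK tier, Mapk14 held 40.9% ± 7.69 of the summed CPM per kb (SD, n = 4). The JNK genes held 11.5% ± 1.91. The atypical genes held 1.88%, 13.9%, 11.9% and 0.153% in replicates 1 to 4, nearly all of it Mapk6. The atypical share was therefore high in replicates 2 and 3, while the JNK share ran from 9.88% to 13.7%.

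**Figure D2:**
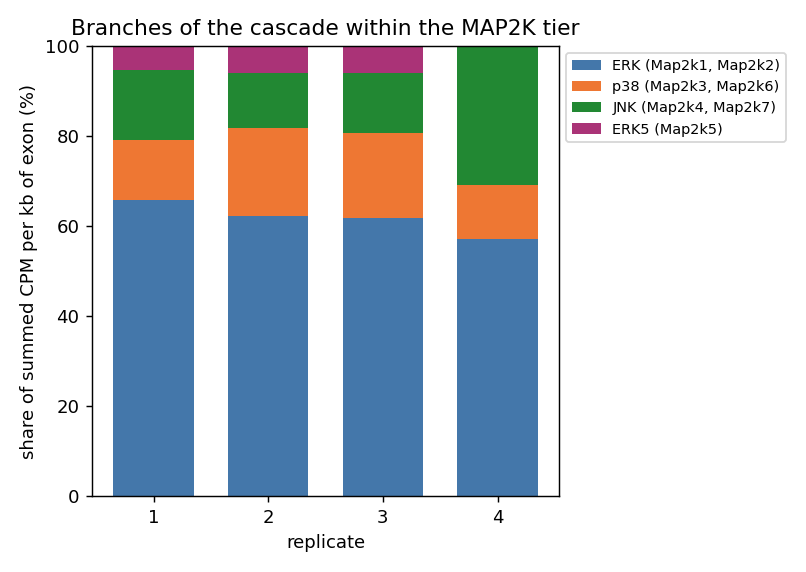
Share of each branch in the summed CPM per kb of exon (y axis, percent) of the MAP2K tier in replicates 1 to 4. The ERK branch (Map2k1 and Map2k2) holds 57.1% to 65.7% of each bar, and the JNK branch (Map2k4 and Map2k7) is largest in replicate 4.

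The MAP2K tier was led by the ERK branch. Map2k1, which encodes MEK1, had the highest mean level of all 43 kinases, at 170 ± 62.0 CPM (SD, n = 4), with 226, 192, 179 and 81.6 CPM in replicates 1 to 4. Mapk14 was close behind, at 168 ± 56.1 CPM, and was the higher of these genes in replicate 4, at 241 CPM. Per kb of exon the means were 50.1 ± 18.3 CPM for Map2k1 and 38.5 ± 12.8 CPM for Mapk14. Map2k2, which encodes MEK2, stood at 85.1, 77.7, 87.4 and 110 CPM. Replicate 4 was the lowest library for Map2k1 and the highest for Map2k2. Together they held 61.7% ± 3.53 of the tier per kb, and 65.8% with the longest transcripts. Map2k1 exceeded Map2k2 per kb in 4 of 4 libraries, by 2.15, 2.05, 1.77 and 0.31 on the log2 scale (1.57 ± 0.86, SD, n = 4). With the longest transcripts, whose lengths are nearly equal, the mean was 0.81, and with no length correction it was 0.83. In both cases Map2k1 was the higher in 3 of 4 libraries and Map2k2 in replicate 4.

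The activators of the p38 and JNK branches were lower. Map2k3, which encodes the p38 activator MKK3, stood at 38.8, 60.1, 53.1 and 30.0 CPM, whereas its partner Map2k6 (MKK6) gave 17.6, 14.2 and 16.6 CPM in replicates 1 to 3 and 3 counts (0.147 CPM) in replicate 4. The JNK activator gene Map2k4 (MKK4) stood at 79.8, 48.2, 57.3 and 70.7 CPM. Map2k7 (MKK7) gave 7.81, 13.5, 9.79 and 32.2 CPM, with replicate 4 the highest. Per kb, Map2k4 was above Map2k7 in 4 of 4 libraries, with a mean log2 ratio of 1.93 ± 0.95 (SD, n = 4). Map2k5, the ERK5 activator MEK5, was nearly level in replicates 1 to 3, at 21.8, 21.7 and 21.5 CPM, and had 3 counts in replicate 4.

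Map3k8 was the leading MAP3K on average and had the largest dispersion of the MAP3K genes tested. It encodes TPL2, which links Toll-like and TNF receptors to the ERK branch in macrophages. Its levels were 57.0, 247, 273 and 23.6 CPM in replicates 1 to 4, so replicates 2 and 3 lay above replicates 1 and 4 with a wide gap. It held 19.4%, 48.9%, 59.3% and 17.6% of the tier per kb, and led the tier in replicates 2 and 3 only. Map3k3 (26.3%) and Map3k11 (24.4%) held more in replicate 1, and Map3k2 (27.2%) held more in replicate 4. Replicates 2 and 3 are the libraries with the higher immediate early gene level, and the part of that state in the Map3k8 level was not tested. Cell markers differed between the same libraries. The microglia marker sum, given above, was lower in replicates 2 and 3 than in replicates 1 and 4. The 12 neutrophil markers summed to 1529, 301, 288 and 2443 CPM in replicates 1 to 4, with 0, 0, 1 and 1 of them at 0, and the 8 oligodendrocyte markers to 492, 1805, 1839 and 621 CPM, with none at 0. The 9 markers of border-associated macrophages summed to 309, 806, 887 and 442 CPM, and their part and that of the other markers in the Map3k8 level was not tested.

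Map3k1, Map3k2 and Map3k3 each had a different order of libraries. Map3k1, which encodes MEKK1 of the JNK pathway, was even, at 36.7, 40.3, 30.0 and 32.1 CPM. Map3k2 (MEKK2), an activator of the ERK5 pathway, gave 14.4, 62.6, 43.0 and 113 CPM and was highest in replicate 4. Map3k3, its close relative MEKK3, gave 69.0, 51.2, 56.6 and 9.43 CPM and was lowest there. The log2 ratio of Map3k3 over Map3k2 per kb was accordingly mixed, at 4.06, 1.502, 2.19 and -1.78 in replicates 1 to 4, and its mean of 1.49 was -0.30 with no length correction.

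Map3k11, which encodes the mixed-lineage kinase MLK3, stood at 70.1, 81.4 and 23.7 CPM in replicates 1 to 3 and at 4 counts (0.196 CPM) in replicate 4. Its relative Map3k12 (DLK), known for axon injury signalling in neurons, was lower, at 1.21, 6.56, 4.94 and 0.196 CPM. Per kb, Map3k11 was above Map3k12 in 4 of 4 libraries, with a mean log2 ratio of 3.96 ± 2.44 (SD, n = 4). In replicate 4 each had 4 counts, so the ratio of 1.03 there is the ratio of exon lengths alone, and with no length correction Map3k11 was above in 3 of 4. Leaving out 1 library at a time gave means from 2.996 (without replicate 1) to 4.94 (without replicate 4). Exons of both genes overlap a gene on the opposite strand in the annotation used here, Pcnx3 for Map3k11 and Pcbp2 for Map3k12. Without a stated strand setting, reads in the shared stretches cannot be assigned to either.

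Map3k14 encodes NIK, the kinase of the non-canonical NF-kappa-B pathway. It stood at 13.01, 29.7, 17.3 and 29.0 CPM, and Map3k8 exceeded it per kb by 2.67, 3.60, 4.51 and 0.25 on the log2 scale, or in 3 of 4 libraries with no length correction. Map3k5 (ASK1), a sensor of oxidative stress, gave 16.7, 16.5, 20.3 and 6.53 CPM. Map3k4 (MEKK4) gave 23.1, 26.6, 27.2 and 1.42 CPM, with replicate 4 far below the others. Map3k7, which encodes TAK1, the shared kinase of Toll-like, IL-1 and TNF receptor signalling, gave 6.41, 9.97 and 23.6 CPM in replicates 1 to 3 and 0 counts in replicate 4.

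The remaining MAP3K genes were low or seen in some libraries only. Map3k20 (ZAK), a sensor of ribosome stress, gave 0.0971, 9.17, 5.41 and 26.4 CPM, highest in replicate 4 and lowest in replicate 1. Map3k9 (MLK1) gave 14.9, 5.49, 2.23 and 0.0982 CPM. Map3k19 gave 10.3, 3.28, 3.65 and 0.0982 CPM. Both Map3k9 and Map3k19 were highest in replicate 1 and lowest in replicate 4. Map3k10 (MLK2) gave 0.582, 4.43, 0.687 and 5.94 CPM and Map3k15 (ASK3) 2.77, 2.35, 1.503 and 0 CPM. Map3k15 overlaps Pdha1 on the opposite strand, which reached 75.2 CPM, so its low counts are uncertain. Map3k6 (ASK2) had 7 counts and Map3k13 (LZK) a single count, all in replicate 2.

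The MAP4K tier had the most even of the 23 kinases tested for spread. Map4k5, a germinal centre kinase, stood at 44.4, 43.6, 48.6 and 41.8 CPM, a mean of 44.6 ± 2.90 (SD, n = 4), and held 41.4% ± 5.85 of the tier per kb. Its exons overlap Atl1 on the opposite strand, which itself reached 48.9 CPM, and the reads in the shared stretch cannot be told apart. Map4k4, which encodes a kinase of cytoskeletal and JNK signalling, gave 16.4, 25.4, 41.9 and 27.6 CPM, and Map4k2 gave 20.1, 20.2, 11.7 and 13.6 CPM. Map4k3, known from amino acid sensing, gave 7.42, 8.24, 9.27 and 20.6 CPM and was highest in replicate 4. Per kb, Map4k4 was above Map4k3 in 4 of 4 libraries, with a mean log2 ratio of 1.39 ± 0.74 (SD, n = 4). With the longest transcripts that mean was 0.89 and the order held in 3 of 4.

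Map4k1 encodes HPK1, a kinase of blood cells that restrains antigen receptor signalling in lymphocytes. It had 226 counts (10.01 CPM) in replicate 2, 53 counts (2.28 CPM) in replicate 3 and 0 in replicates 1 and 4. The 10 T and NK cell markers summed to 0.0485, 7.75, 13.1 and 0.147 CPM in replicates 1 to 4, and 9, 3, 2 and 7 of them were at 0. Of these markers, Cd3e (0.753 CPM) and Cd8a (1.20 CPM) had counts in replicate 2 alone. Lck (1.55 CPM) and Klrb1c (1.37 CPM) had them in replicate 3 alone, and Cd4 gave 1.93 CPM in replicate 3 and 0 in replicate 2. In replicates 2 and 3, Nkg7 gave 2.48 and 2.83 CPM, Gzma 1.77 and 2.88 CPM and Trac 1.33 and 1.03 CPM. Cd3g gave 0.0886 and 1.37 CPM there, and Cd3d 0.133 and 0.172 CPM. The 8 B cell markers had another order of libraries, summing to 735, 316, 371 and 692 CPM, with 2, 4, 4 and 3 of them at 0. Most of that sum was Ighm, at 649, 293, 344 and 630 CPM, and Ebf1 alone among them was highest in replicate 2, at 3.19 CPM. The part of T, NK or B cells in the Map4k1 counts was not tested.

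**Figure D3:**
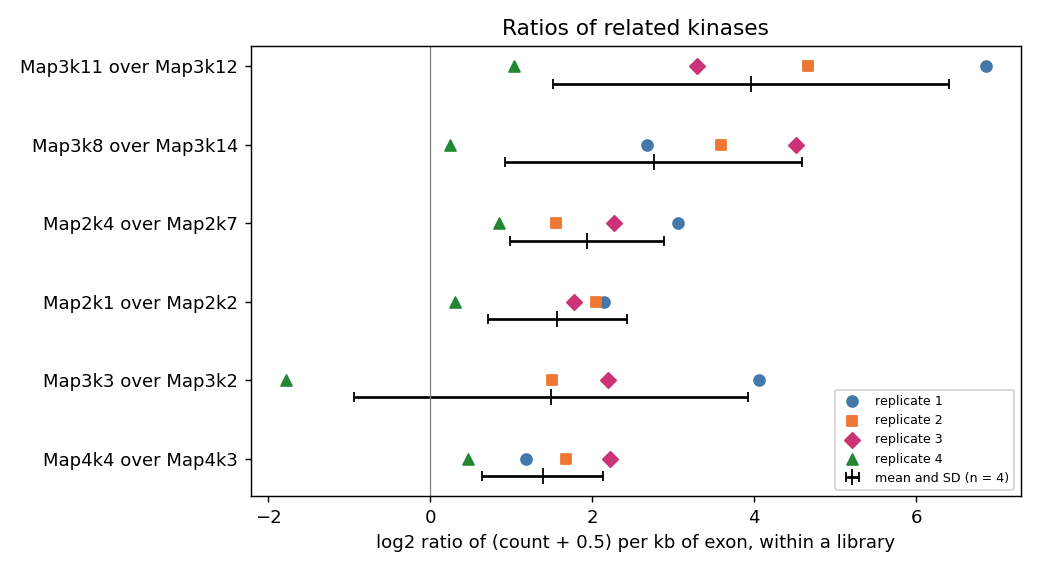
Log2 ratio of related kinases per kb of exon (x axis) in each library, for the 6 pairs in which both genes had over 3 counts in every library; the black bar gives the mean and SD of the 4 libraries. Replicate 4 is the lowest point in each of the 6 pairs, and only Map3k3 over Map3k2 lies on both sides of 0.

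In all, 13 pairs of related kinases were compared within libraries, on the log2 scale, with 0.5 added to each count and division by kb of exon. In 12 pairs the first-named gene was the higher in 4 of 4 libraries by union exon length. In 4 of these the lead was 3 of 4 under another length: Map2k1 over Map2k2, Map3k8 over Map3k14, Map3k11 over Map3k12 and Map4k4 over Map4k3, each time with replicate 4 as the exception. No mean fold is given for 7 of the 13 pairs, where at least 1 library held no more than 3 counts of a gene. By an exact permutation of signs (two-sided), p was 0.125 (adjusted p = 0.14) for each of the 12, and p = 0.375 for Map3k3 over Map3k2. The smallest p that 4 libraries allow is 0.125, so no pair could pass 0.05.

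The spread of each kinase between libraries was then set against that of genes of like abundance. An intercept-only quasi-likelihood fit in edgeR gave each gene's dispersion over the trend at its level, tested on the upper tail. Of the 43 kinases, 23 passed the filter on low counts, which in a single group requires counts in every library, and the 20 others, such as Mapk8 and Map3k11, were not tested. None of the 23 was called at an adjusted p under 0.05 (edgeR), against 0% of the 9075 genes tested. At an unadjusted p under 0.05 there were 2 of the 23 (8.70%), against 390 of all 9075 genes (4.30%). DESeq2 named 0 of the 23 as dispersion outliers, against 0% of all 9075 genes. On counts simulated with the same dispersion for every gene, the test called 53 of 100 genes changed 16-fold in 2 of 4 libraries and 1 of 100 changed 4-fold. Dispersions differ between genes in the real data, where the smallest adjusted p of all 9075 genes was 0.94 (edgeR). The simulated shares therefore do not carry over to these data, and a kinase that was not called may still differ widely. With replicates 2 and 3 alone in the fit, 1 of 34 kinases tested (2.94%) was called, against 0.11% of 13583 genes. It was Map3k11, at 81.4 and 23.7 CPM (edgeR, adjusted p = 0.034). With only 2 libraries the test borrows more from other genes, with 86.3 prior degrees of freedom against 4.33 in the main fit. Map3k11 was not called in the other settings that tested it, and its exons overlap Pcnx3 as given above.

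The 2 kinases at an unadjusted p under 0.05 were Mapk6 and Map3k8. The dispersion of each lay 4.07 above the trend on the log2 scale (edgeR, adjusted p = 0.94 for both). At the other end stood Map4k5, at -3.50, Map2k2, at -3.10, Map3k1, at -3.03, and Mapk9, at -2.75. The highest library was 1.164 times the lowest for Map4k5, 1.34 times for Map3k1 and 85.2 times for Mapk6. The median of that ratio was 2.56 over the 23 kinases, against 2.43 over all genes tested, and 8 kinases (34.8%) exceeded 4-fold, against 25% of all genes.

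**Figure D4:**
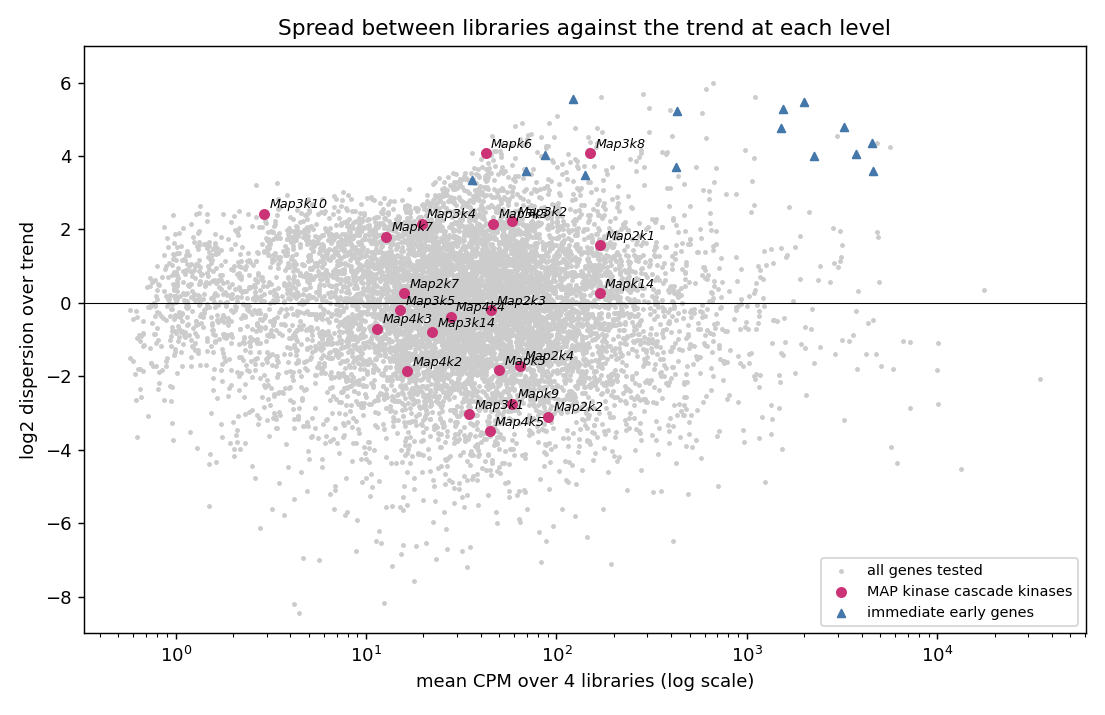
Log2 dispersion over the trend (y axis) against mean CPM (x axis, log scale) for the 9075 genes tested (grey), 22 of the 23 kinases tested (red) and the 15 immediate early genes tested (blue). Mapk6 and Map3k8 lie at 4.07 among the immediate early genes, and the other 20 kinases shown lie between -3.50 and 2.43.

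In replicate 4, 4 of the 23 kinases at 10 CPM or more in the other libraries were under 1 CPM (17.4%), against the 8.53% of all genes given above. They were Mapk8, Map2k5, Map2k6 and Map3k11. No kinase did so in replicates 1 to 3, where 15 kinases qualified each time. The 23 kinases tested for spread are a different set. The filter, which needs counts in every library, left out Mapk8, Map2k5, Map2k6 and Map3k11 before the next count. Among the tested kinases, replicate 4 was the lowest library for 10 (43.5%) and the highest for 8 (34.8%). The shares were 30.7% and 40.3% of all genes tested, which passed the same filter.

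**Figure D5:**
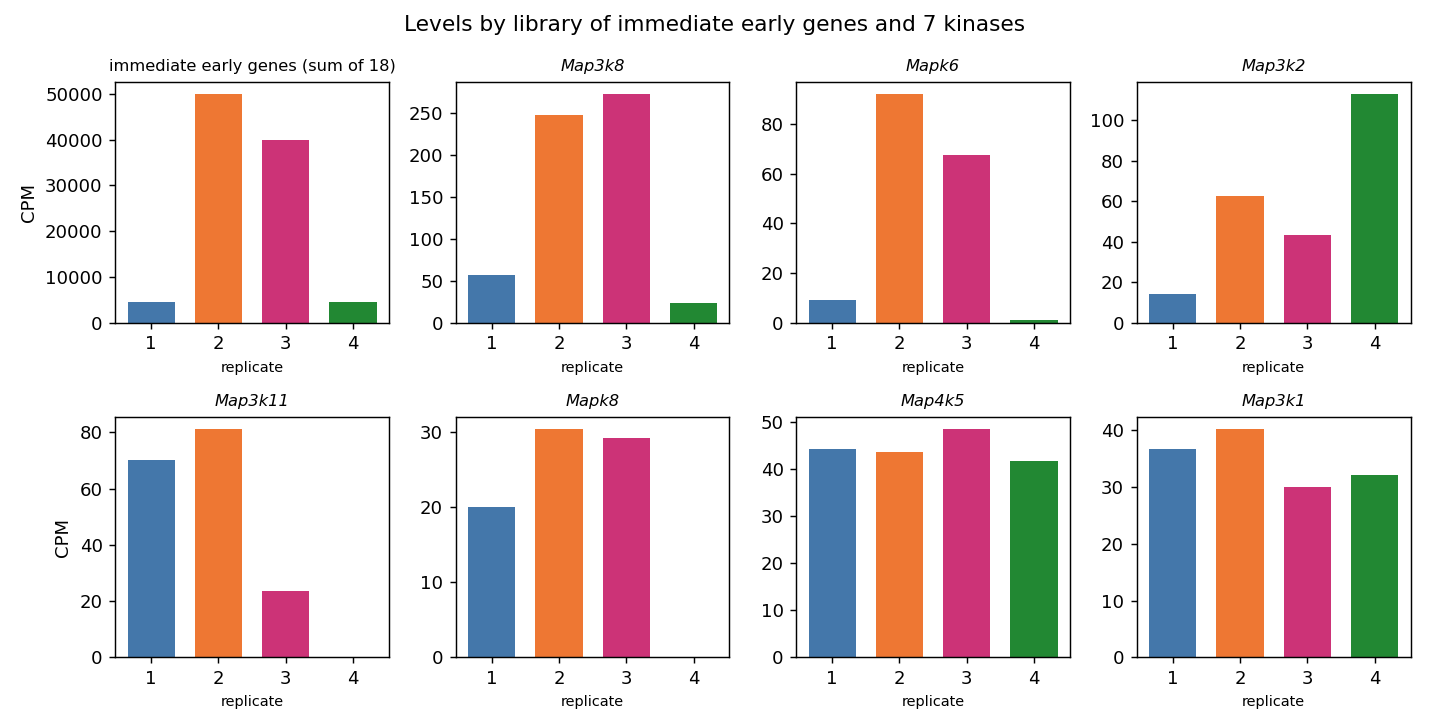
CPM (y axis, from 0) in replicates 1 to 4 of the summed 18 immediate early genes and of 7 kinases. Map3k8 and Mapk6 are high in replicates 2 and 3 like the early genes, Map3k2 is highest in replicate 4, Map3k11 and Mapk8 are near 0 in replicate 4, and Map4k5 and Map3k1 are nearly level.

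The promoter of Mapk6 is shown because its transcript had the widest range of the kinases tested. The sequence is the 250 bases before the outer of its 2 start windows in RefSeq (GRCm38.p6), chr9:75410017-75410266, minus strand, written 5′ to 3′. Capitals mark its only match, TGACG, the core of the cyclic AMP response element, and the window of the other start held no match to any motif searched.
Mapk6: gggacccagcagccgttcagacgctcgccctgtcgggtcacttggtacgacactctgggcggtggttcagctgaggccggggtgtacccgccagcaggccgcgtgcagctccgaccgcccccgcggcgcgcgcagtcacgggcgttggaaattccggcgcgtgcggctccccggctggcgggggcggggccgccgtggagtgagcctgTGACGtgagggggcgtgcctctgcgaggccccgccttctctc
Both strands were searched for the AP-1 motif TGANTCA, the full cyclic AMP response element TGACGTCA, which contains the core, the ETS motif CCGGAAGT, the CArG box and the NF-kappa-B motif. RefSeq held 46 such windows for 34 of the 43 kinases, some with several starts. The core was in 12 of the 46 windows (26.1%), against 17.8% of all windows of that length. The AP-1 motif was in 3 (6.52%, those of Map2k6, Map2k7 and Map3k10), against 6.75% of all windows, and the CArG box in 0, against 1.47%. The ETS motif was in 2 (4.35%), against 2.88%, the full element in 1 (2.17%), against 1.55%, and the NF-kappa-B motif in 5 (10.9%), against 7.25%. These matches describe letters in the window and not binding.

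Genes around the cascade were counted from fixed lists, which were chosen with earlier results of these data known. The filter, which needs counts in every library, left part of each list untested. None of the 76 genes tested in the 6 lists was called by the same edgeR test at an adjusted p under 0.05, so the counts below use the unadjusted p, to be read against 4.30% of all genes. Among RAS, RAF and upstream adaptors, 2 of 19 tested genes had p under 0.05, namely the adaptor gene Traf6, at 28.5, 52.4, 50.7 and 0.688 CPM in replicates 1 to 4, and the kinase gene Taok3, at 88.1, 76.4, 66.8 and 4.13 CPM. Both were lowest in replicate 4. The highest members, the small GTPase genes Cdc42 and Rac1, stood at 957 ± 124 and 611 ± 78.0 CPM (SD, n = 4), and the next, Rap1b and Rac2, at 405 ± 76.8 and 155 ± 36.2 CPM. The list summed to 3076, 3149, 2951 and 3084 CPM in replicates 1 to 4, a nearly level total. Its median dispersion was -0.90 on the log2 scale, against -0.08 over all genes and -0.20 over the kinases.

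Among scaffolds and regulators, 13 of 25 genes were tested and 0 of the 13 had p under 0.05. The median of those tested was 1.32 above the trend. The highest members were Arrb2, which encodes beta-arrestin 2, at 416 ± 82.8 CPM and Pea15a, which encodes an ERK-binding protein, at 394 ± 85 CPM (SD, n = 4), followed by Nfkb1, whose p105 product binds TPL2, at 120 ± 41.8 CPM. Gadd45b, an activator of MAP3K4, gave 0.340, 204, 152 and 16.2 CPM in replicates 1 to 4 and was among the genes not tested. Among kinases downstream of MAP kinases, 0 of 9 had p under 0.05, with a median of 1.70. Rps6ka1, which encodes the ERK-activated kinase RSK1, stood at 476 ± 120 CPM, Mknk1 (MNK1) at 172 ± 46.1 CPM and Mapkapk2 (MK2), the p38 effector, at 34.4, 51.4, 38.8 and 8.25 CPM. Mknk2 (MNK2) gave 9.80, 37.3, 37.4 and 5.65 CPM.

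Of the 10 dual-specificity phosphatases, which switch MAP kinases off, 4 were tested and 1 of the 4 had p under 0.05. It was Dusp1, at 540, 7672, 10128 and 862 CPM in replicates 1 to 4. The ERK phosphatase gene Dusp6 gave 890, 783, 793 and 488 CPM. Dusp2 gave 0.243, 103, 62.5 and 0.246 CPM and Dusp16, a JNK and p38 phosphatase gene, 53.6, 28.2, 37.0 and 44.5 CPM. Dusp1 and Dusp2 were thus high in replicates 2 and 3, and Dusp6 and Dusp16 were not. Of the lower phosphatase genes, Dusp5 gave 2.72, 25.0, 20.2 and 0.0982 CPM and Dusp8 0, 18.3, 23.6 and 0 CPM. Dusp10 gave 0, 8.95, 15.1 and 0.0491 CPM and Dusp4 0, 2.57, 3.13 and 0 CPM, so these too were higher in replicates 2 and 3. Dusp7 was highest in replicate 1, at 94.9 CPM, and Dusp9 had 0 counts throughout. Among transcription factors that MAP kinases phosphorylate, 3 of 16 had p under 0.05, which were Ets2, Cebpb and Myc. Ets2 gave 14.1, 74.6, 70.3 and 0.737 CPM, while the p38 targets Mef2c and Mef2a were even, at 705 ± 42.4 and 497 ± 35.2 CPM (SD, n = 4). Stat3 stood at 152 ± 62.2 CPM and Ets1 at 131 ± 46.8 CPM. All 15 tested immediate early genes had p under 0.05, with a list median of 4.06 above the trend. The highest by mean were Jun, Zfp36, Junb and Fos, of which Fos gave 372, 6281, 5916 and 310 CPM.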

How the data were processed

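Total RNA of sorted microglia was sequenced from low-input libraries, per the labels. The authors deposited raw read counts per gene, made with STAR 2.7.10a, SAMtools 1.16.1 and HTSeq 0.11.2 on GRCm39, per the submitters' processing notes; the sources used here do not give the annotation or strand setting. The 5 closing rows, which name no gene, held 20.8% ± 1.28 of reads (SD, n = 4) and were left out. CPM used the total of the gene rows. Dispersions were tested with edgeR 4.0.16 (TMM, filterByExpr with a minimum count of 10, Benjamini-Hochberg adjustment over 9075 genes), and DESeq2 1.42.0 was an alternative. The test was tried on simulated counts. Ratios used a pseudocount of 0.5 and union exon lengths from GENCODE M21, matched by symbol for 43 of 43 kinases. The kinases are named, except 1 that is not reported here, with values in every library for the 4 highest of each tier, for pair members and for those at 1 CPM in some libraries only, and of each pathway list the 4 highest. The members and lists were chosen with earlier results of these data known. Scaling, filtering, fit, length, pseudocount and left-out libraries were varied. Counting intervals cover counting error only.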

Additional observations from a re-analysis of the deposited data

Results flagged for a closer look

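In 39 kinase levels and 6 pair ratios over 4 libraries, 9 had 1 library whose gap to its nearest neighbour exceeded Dixon's 95% critical share of the whole range, where chance gives about 1 in 20 for values that vary freely. Replicate 4 was the low library for Map2k5, at 0.147 CPM against a nearest value of 21.5 CPM, and for Map3k4, at 1.42 CPM against 23.1 CPM. It was the high library for Map4k3, at 20.6 CPM against 9.27 CPM, and for Mapk3, at 69.8 CPM against 45.0 CPM. Replicate 2 was the high library for the kinases seen almost nowhere else. These were Mapk4 at 2.97 CPM, Mapk10 at 1.68 CPM, Mapk15 at 0.753 CPM, Map3k6 at 0.310 CPM and Mapk13 at 0.266 CPM. The nearest library was at 0.172 CPM for Mapk10 and at 0 for the other 4, in which the other 3 libraries were all at 0, so any count in replicate 2 would have met the criterion and the chance rate does not apply.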

How the results depend on the processing

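No kinase was called variable under the other scalings, no filter, the legacy and robust fits (the robust fit was added after seeing the data), DESeq2, each replicate left out in turn (0 to 0), or without replicates 2 and 3. In each of these settings 0% of all genes tested were called, so the absence of calls is not particular to the kinases. Without replicates 1 and 4, which leaves 2 libraries, 1 of 34 tested kinases was called, Map3k11 (edgeR, adjusted p = 0.034). Its adjusted p (edgeR) ran from 0.034 to 0.95 over the 3 alternatives that tested it. Of 17 tested immediate early genes, 1 was called without replicates 1 and 4, Ier5. Of all 13583 genes tested there, 0.11% were called. The adjusted p of Mapk6 ran from 0.67 to 0.96 and that of Map3k8 from 0.67 to 0.996. With no length correction the mean log2 ratio of Map3k3 over Map3k2 was -0.30, and 4 other pairs lost their order in replicate 4 under another length (Map2k1 over Map2k2 0.81 and 0.83, Map4k4 over Map4k3 0.89, Map3k8 over Map3k14 2.22, Map3k11 over Map3k12 2.93); lengths from GRCm38 may differ from the authors' annotation. The share of Map2k1 with Map2k2 was 65.8% with the longest transcripts, an alternative added after seeing the data. The number of kinases at 1 CPM in every library was 21 to 23, or 31 without replicate 4. Of 41 kinase levels above 0, 41 stayed within 1.5 times under both other scalings, but 16 moved by more than that without 1 library. Those at over 1 CPM on average were Map4k1 (0.758 CPM), Map3k12 (2.12 CPM) and Mapk6 (25.97 CPM) without replicate 2, Map3k9 (2.61 CPM) and Map3k19 (2.34 CPM) without replicate 1, Map3k7 (5.46 CPM) without replicate 3, and Map3k20 (4.89 CPM), Map2k7 (10.4 CPM) and Map3k10 (1.90 CPM) without replicate 4. This count was added after seeing the data. No paired analysis was possible because the libraries form a single group. At 3 counts the depth limits detection to 0.129 to 0.147 CPM by counting error alone. The number of genes with a count was lower in replicates 1 and 4 than in replicates 2 and 3, so detection did not follow depth alone.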
